A study of Mus musculus with 6 samples.

Results

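Of 10 genes that act at the start of autophagy, carry its cargo or encode the regulator SMCR8, Smcr8 had the largest change on arrays of neuroblastoma cells in which the transcription factors USF1 and USF2 were targeted by RNA interference. Its signal was 1.16-fold that of empty vector cells, with the arrays of the groups not overlapping, but it did not pass the adjusted threshold over all genes. The genes were taken by symbol: the initiation kinases Ulk1 and Ulk2, their scaffold Rb1cc1, the lipid kinase Pik3c3 with its partners Becn1 and Uvrag, the membrane proteins Wipi1 and Atg9a, the cargo receptor Sqstm1, and Smcr8. They were chosen with earlier results of these data known. All 10 were measured, each by 1 transcript cluster (the set of probes read as 1 gene), out of 16583 genes tested. Of the 10, 5 lie on mouse chromosome 11 in the RefSeq table (assembly GRCm38.p6): Ulk2, Becn1, Wipi1, Sqstm1 and Smcr8.

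The cells were Neuro2a, a mouse neuroblastoma line. They received by lipid transfection either vectors for microRNA-type RNA interference against USF1 and USF2 (called USFKD, 3 arrays) or the empty vector (called Control, 3 arrays). The labels name the same parental vector system for the interference vectors. They give neither the share of cells transfected nor the time of harvest. The signal may therefore average over cells that took up a vector and cells that did not. Each sample was read on 1 Affymetrix Mouse Gene 1.0 ST array. Replicates are labelled biological, but whether they were separate cultures is not said, and the p-values then cover only the spread seen between these arrays, which could be technical. In bulk RNA like this, fewer cells of a type and less RNA per cell cannot be told apart.

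Autophagy packs cytoplasm into a double membrane that fuses with lysosomes. It is switched on by the ULK1 kinase complex, which holds ULK1 or ULK2 with the scaffold FIP200, the product of Rb1cc1, and which is held in check by mTORC1 and activated by AMP-activated kinase. The complex acts on a lipid kinase made of VPS34 (Pik3c3), Beclin 1 (Becn1) and further partners, whose product PI3P recruits WIPI proteins, while ATG9A vesicles supply membrane. SQSTM1, also called p62, links ubiquitinated cargo to the growing membrane. SMCR8 forms a complex with C9orf72 and WDR41 that acts on small GTPases and has been linked to ULK1 and to lysosomes. USF1 and USF2 bind the E-box CACGTG in promoters, which the lysosomal regulators TFEB and TFE3 also recognise within longer sequences.

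Values below are log2 signals relative to each gene's own median over the 6 arrays, so that arrays can be set against each other for a gene while its level stays unknown. A change is USFKD minus Control on that log2 scale, fitted with limma over all 16583 genes, and an adjusted p is a Benjamini-Hochberg p over all of them with a threshold of 0.05. The array signals kept a trace of their brightness before centring, since the rounding step of the numbers differs between signals of 4 to 8 and of 8 to 16. By it 9 of the 10 genes lay in the brighter class (8 to 16) and Ulk2 in the dimmer one (4 to 8). Over all genes, 7318 of 16583 lay in the brighter class. The class is not a measured level.

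Both targets were lower in USFKD cells on every array. Usf1 had values of -0.281, -0.180 and -0.262 on the USFKD arrays, against 0.180, 0.322 and 0.429 on the Control arrays, a change of -0.55 ± 0.07 (SE, n = 3 each, limma adjusted p = 0.320). Usf2 had -0.220, -0.132 and -0.118 on the USFKD arrays, against 0.118, 0.276 and 0.267 on the Control arrays, a change of -0.38 ± 0.06 (SE, n = 3 each, limma adjusted p = 0.348). Neither passed over all genes, where 1 of 16583 genes did. USFKD array 2 had the widest spread: over all 22891 clusters its values had a standard deviation of 0.159, against 0.0531 to 0.0780 for the other arrays. This spread is around the gene medians and does not tell noise from a systematic difference of that array. Its cause was not tested. Of the neuronal and sympathetic markers that should mark Neuro2a cells, 13 of 17 measured were in the brighter class, against 1 of 8 markers of glia, 0 of 6 of fibroblasts and 0 of 4 of macrophages and blood cells. Over all genes this class held 7318 of 16583. Of the 17 neuronal and sympathetic markers, 0 passed the adjusted threshold in limma, and 3 were lower and 0 higher at an unadjusted p under 0.05 (background 2.65% and 1.60%). These were Dbh, which makes noradrenaline (-0.25 ± 0.05, SE), the RNA-binding Elavl4 (-0.13 ± 0.04) and the granule protein Chgb (-0.15 ± 0.05), named after their values were seen. USFKD arrays lay below all Control arrays for 4 of the 17 (background 5.95%) and above for 2 (background 4.33%). The 2 above were Nefm (0.10 ± 0.05, SE) and Chga (0.05 ± 0.04, SE), also named after their values were seen. Of the 17 changes, 10 were below 0 and 7 above. Dbh was read in the dimmer class. The medians of the 3 lists of other cell types were 0.15, 0.25 and 0.07 on USFKD array 2. They lay between -0.11 and 0.04 on the other USFKD arrays and between -0.07 and 0.04 on the Control arrays. The part of all these markers in the results below was not tested.

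Of the 10 genes, 0 passed the adjusted threshold in limma (background 0.00603% of all genes) and 1, Smcr8, was at an unadjusted p under 0.05 (background 4.25%, of which 1.60% higher and 2.65% lower). For 3 of the 10, Smcr8, Sqstm1 and Pik3c3, the 3 USFKD arrays lay above the 3 Control arrays (background 4.33%), and for 0 of the 10 they lay below (background 5.95%, and 10.3% for either direction). The median change of the 10 genes was 0.0011, beside -0.0007 over all genes, with 5 changes above 0 and 5 below. The 10 genes thus had no common direction.

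**Figure D1:**
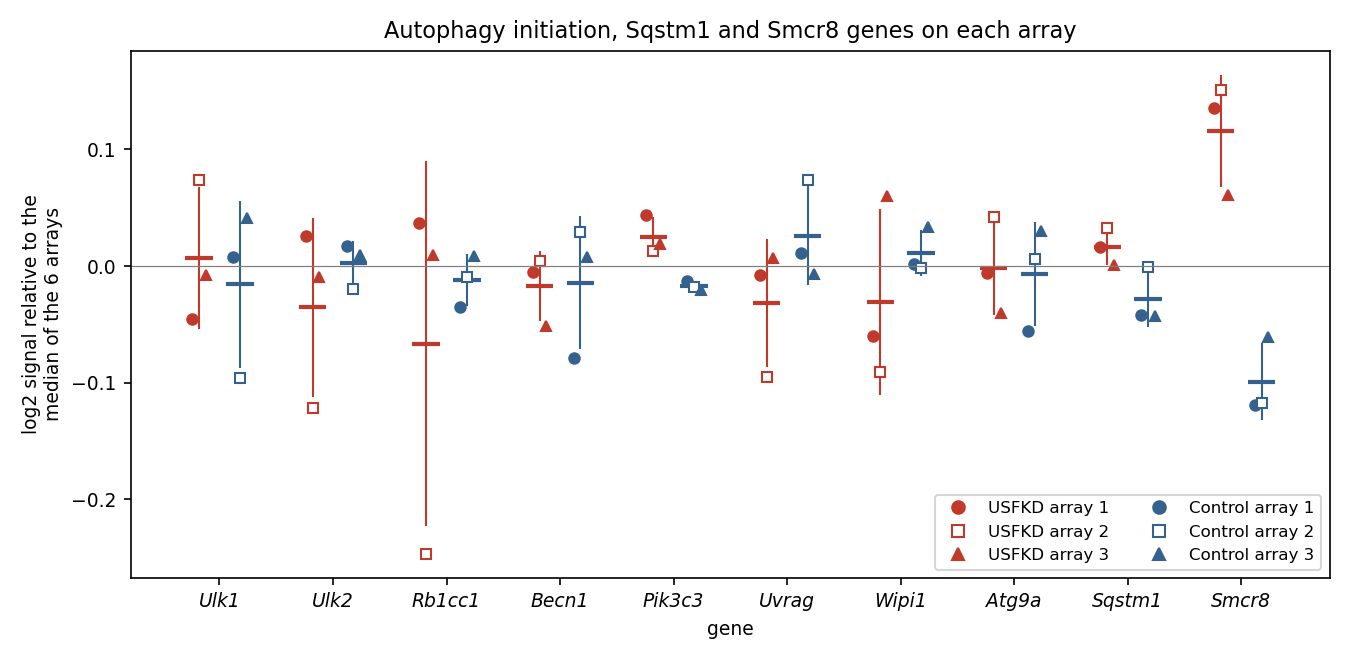
Log2 signal of each gene relative to its median over the 6 arrays (vertical axis) for the 10 genes (horizontal axis). Points are single arrays, red for USFKD and blue for Control, horizontal bars are means and vertical lines the SD over 3 arrays. The groups do not overlap for Smcr8, Sqstm1 and Pik3c3, and USFKD array 2 is the low point at -0.247 for Rb1cc1.

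Smcr8 (cluster 10376721) had values of 0.135, 0.151 and 0.061 on the USFKD arrays, against -0.119, -0.117 and -0.061 on the Control arrays. Each USFKD array was thus above the gene's median and each Control array below it. The means were 0.12 ± 0.05 in USFKD cells and -0.10 ± 0.03 in Control cells (SD, n = 3 each). The change was 0.22 ± 0.05 (SE, n = 3 each), a fold of 1.16 with a 95% interval from 1.08 to 1.25, at an unadjusted limma p of 0.00153 and an adjusted p of 0.759. By p it ranked 31 of 16583 genes. Since the 10 genes were chosen with earlier results of these data known, this rank and the limma p are not independent support. A two-sided exact permutation test gave p = 0.1, and 3 against 3 arrays cannot go lower.

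The change of Smcr8 kept its sign when any 1 array was left out, between 0.20 and 0.24, with unadjusted limma p from 0.00157 to 0.00881. Without USFKD array 2, the one with the wide spread, it was 0.20 at an adjusted limma p of 0.400. Over 14 alternatives in all the adjusted p lay between 0.00518 and 1.00, and the call was made in 1 of them, with array quality weights, in which USFKD array 1 had a weight of 33 against 0.136 and 0.441 for USFKD arrays 2 and 3. That fit rests in effect on 1 USFKD array.

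C9orf72 and Wdr41 encode the partners of SMCR8 in its complex. C9orf72 had values of 0.056, -0.292 and 0.021 on the USFKD arrays, against -0.030, -0.021 and 0.022 on the Control arrays, a change of -0.06 ± 0.09 (SE). Wdr41 had a change of -0.02 ± 0.04 (SE). For both genes the groups overlapped. C9orf72 and Wdr41 are named here after their values were seen, as the other parts of the complex.

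The list of SMCR8 partners and of other genes with DENN domains or related functions, folliculin and its partners among them, held 14 genes, all measured. In limma 0 passed the adjusted threshold, and 1 gene, higher in USFKD cells, was at an unadjusted p under 0.05 (background 1.60%). It was Flcn, whose product folliculin resembles SMCR8 in fold and acts on Rag GTPases at the lysosome. Flcn had values of 0.090, 0.019 and 0.064 on the USFKD arrays, against -0.131, -0.058 and -0.019 on the Control arrays, a change of 0.13 ± 0.05 (SE, limma adjusted p = 0.996). Fnip1, which encodes a partner of folliculin, had 0.012, 0.0032 and 0.066 on the USFKD arrays, against -0.0032, -0.099 and -0.057 on the Control arrays, a change of 0.08 ± 0.05 (SE, limma adjusted p = 0.996). Flcn and Fnip1 were the 2 genes of the list with USFKD arrays above all Control arrays (background 4.33%). Dennd6a had the lowest change of the list, -0.17 ± 0.09 (SE), and was at -0.06 without USFKD array 2. The median of the list was -0.02, and 9 of its 14 changes were below 0. Without USFKD array 2 this median was 0.01.

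The genes beside Smcr8 on chromosome 11 in the RefSeq order were Top3a and Shmt1, with changes of 0.04 ± 0.04 and 0.02 ± 0.04 (SE) and overlapping groups. Over all 10 genes, 19 of 20 adjacent protein-coding genes were measured, 0 of them at an unadjusted limma p under 0.05 and 2 with groups that did not overlap (background 10.3%), Akap10 beside Ulk2 (-0.12 ± 0.07, SE) and Prkar1a beside Wipi1 (-0.04 ± 0.04, SE). These neighbours were named after their values were seen.

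The genes whose values over the 6 arrays were most like those of Smcr8 by Pearson's r were Sgsm1 (0.993), Cfap74 (0.991), Clpp (0.979), Ces3b (0.979) and P2ry13 (0.975). Of 16582 other genes, 24 had an r above 0.95. The change of Sgsm1 was 0.38 ± 0.05 (SE, limma adjusted p = 0.328). Among the 10 genes, r with Smcr8 ran from -0.730 for Uvrag to 0.868 for Pik3c3 (n = 6 arrays). These correlations describe arrays that share their groups and are not tested.

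Sqstm1 (cluster 10385572) had values of 0.0165, 0.032 and 0.0006 on the USFKD arrays, against -0.042, -0.0006 and -0.043 on the Control arrays. The lowest USFKD array and the highest Control array were thus almost level. The change was 0.04 ± 0.04 (SE, n = 3 each, limma adjusted p = 0.996), a fold of 1.03 with a 95% interval from 0.968 to 1.10. This change, 0.0449, was little more than its own SE of 0.0399 and smaller than the median SE of a gene on these arrays, 0.0561. Leaving out 1 array at a time the change lay between 0.04 and 0.06.

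SQSTM1 also binds KEAP1, the protein that keeps the antioxidant factor NRF2 low, and Sqstm1 is itself a known NRF2 target. Of 8 genes of this branch, all measured, 0 passed the adjusted threshold in limma, and at an unadjusted p under 0.05 stood 1 gene above 0 and 1 below (background 1.60% and 2.65%). Hmox1, an enzyme that breaks down heme, was at 0.32 ± 0.05 (SE, limma adjusted p = 0.348) and Keap1 one of -0.09 ± 0.04 (SE, limma adjusted p = 0.996). Keap1 was read in the dimmer class, at -0.036, -0.032 and -0.043 on the USFKD arrays against 0.032, 0.065 and 0.072 on the Control arrays. Nqo1, a quinone reductase induced by NRF2, was at -0.11 ± 0.06 (SE), with groups that overlapped, and at -0.07 without USFKD array 2 or Control array 2. The list had a median of -0.01, and of 0.0006 without USFKD array 2.

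The other cargo receptors and adaptors, 17 measured of 18 listed, had 0 genes past the adjusted threshold in limma and 1, below 0, at an unadjusted p under 0.05 (background 2.65% lower). The mitophagy receptor Bnip3 had -0.052, -0.277 and -0.050 on the USFKD arrays, against 0.155, 0.047 and 0.061 on the Control arrays, a change of -0.21 ± 0.07 (SE, limma adjusted p = 0.996), which was -0.14 without USFKD array 2. Ccpg1, a receptor for autophagy of the endoplasmic reticulum, was at -0.10 ± 0.05 (SE) and Stbd1, which binds glycogen, at -0.11 ± 0.07 (SE). Each of these 3 genes was lowest on USFKD array 2, without which Ccpg1 was at -0.06 and Stbd1 at -0.04. Of the list, 12 changes were below 0 and 5 above, with a median of -0.01, and 3 of the 17 genes had USFKD arrays below all Control arrays (background 5.95%). Without USFKD array 2 this median was 0.0047.

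Pik3c3 (cluster 10454414), the catalytic subunit of the lipid kinase, had 0.044, 0.0125 and 0.019 on the USFKD arrays, against -0.0125, -0.018 and -0.020 on the Control arrays. The Control arrays were close together, with an SD of 0.0040. The change was 0.04 ± 0.04 (SE, n = 3 each, limma adjusted p = 0.996), a fold of 1.03 with a 95% interval from 0.967 to 1.10. The limma SE is larger than the SD of the arrays because the fit moves the spread of a gene towards that of all genes. Over the fits without 1 array the change lay between 0.03 and 0.05.

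Becn1, whose product joins VPS34 to its regulators, had -0.0047, 0.0047 and -0.051 on the USFKD arrays, against -0.079, 0.029 and 0.0078 on the Control arrays. The change was -0.0030 ± 0.05 (SE, 95% interval of the fold 0.926 to 1.08), and its sign turned in 5 of 14 alternatives. Uvrag, a partner of the kinase that acts in endosome traffic and late autophagy, had -0.0081, -0.095 and 0.0069 on the USFKD arrays, against 0.011, 0.074 and -0.0069 on the Control arrays. Its change was -0.06 ± 0.05 (SE, limma adjusted p = 0.996), the lowest of the 10 genes. It was at -0.03 without USFKD array 2 or without Control array 2, the arrays with its lowest and highest values. The groups overlapped for both genes.

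The ULK kinases and their scaffold had changes on both sides of 0. Ulk1 had -0.045, 0.074 and -0.0079 on the USFKD arrays, against 0.0079, -0.096 and 0.041 on the Control arrays, a change of 0.02 ± 0.05 (SE). Ulk2 had 0.025, -0.12 and -0.0097 on the USFKD arrays, against 0.017, -0.020 and 0.0097 on the Control arrays, a change of -0.04 ± 0.05 (SE). Rb1cc1 had 0.037, -0.247 and 0.0097 on the USFKD arrays, against -0.035, -0.0090 and 0.0090 on the Control arrays, a change of -0.06 ± 0.08 (SE). The groups of all 3 genes overlapped, and each gene had its most extreme USFKD value on USFKD array 2. Without that array the signs of all 3 turned, to -0.01 for Ulk1, 0.0056 for Ulk2 and 0.03 for Rb1cc1. Ulk2 and Rb1cc1 had the highest correlation of any pair of the 10 genes over the 6 arrays, 0.942, with both at their lowest on that array.

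The difference between the paralogues, Ulk1 minus Ulk2 on each array, was -0.071, 0.196 and 0.0018 on the USFKD arrays, against -0.0091, -0.076 and 0.031 on the Control arrays. The groups differed by 0.06 in this measure, with an exact two-sided permutation p of 0.6. Without USFKD array 2 it was -0.02. With 3 against 3 arrays this test cannot give a p below 0.1, so it could not have passed the threshold.

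Wipi1, a reader of PI3P at the forming membrane, had -0.060, -0.091 and 0.060 on the USFKD arrays, against 0.0018, -0.0018 and 0.034 on the Control arrays. USFKD arrays 1 and 2 were below and USFKD array 3 above all Control arrays. The change was -0.04 ± 0.05 (SE, limma adjusted p = 0.996), and it was -0.09 without USFKD array 3 and -0.01 without USFKD array 2. Atg9a, the lipid scramblase of the vesicles that seed the membrane, had -0.0061, 0.042 and -0.040 on the USFKD arrays, against -0.056, 0.0061 and 0.030 on the Control arrays, a change of 0.0052 ± 0.05 (SE, limma adjusted p = 0.998). Its sign turned in 4 of 14 alternatives. Becn1 and Atg9a had a correlation of 0.859 over the 6 arrays, and for both genes Control array 1 was the lowest of all.

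**Figure D2:**
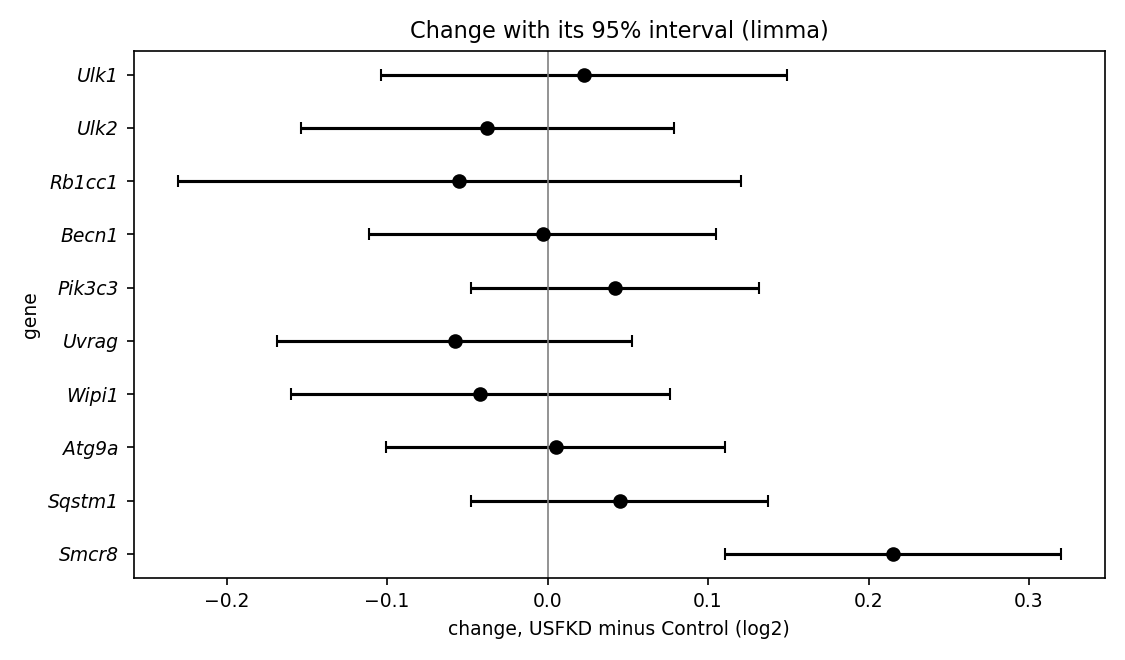
Change of each gene, USFKD minus Control on the log2 scale (horizontal axis), with its 95% interval from limma, for the 10 genes (vertical axis). The interval of Smcr8 lies above 0, from 0.11 to 0.32, and the intervals of the other 9 genes hold 0.

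For the 9 genes other than Smcr8 the 95% intervals of the fold lay within 0.852 and 1.11. The widest was that of Rb1cc1, from 0.852 to 1.09. These intervals are not adjusted for the number of genes, and arrays can compress a fold. They are the ranges of fold that the fit allows and not limits of detection. A larger change could also miss the adjusted threshold here, as that of Usf1 did at a fold of 0.682.

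**Figure D3:**
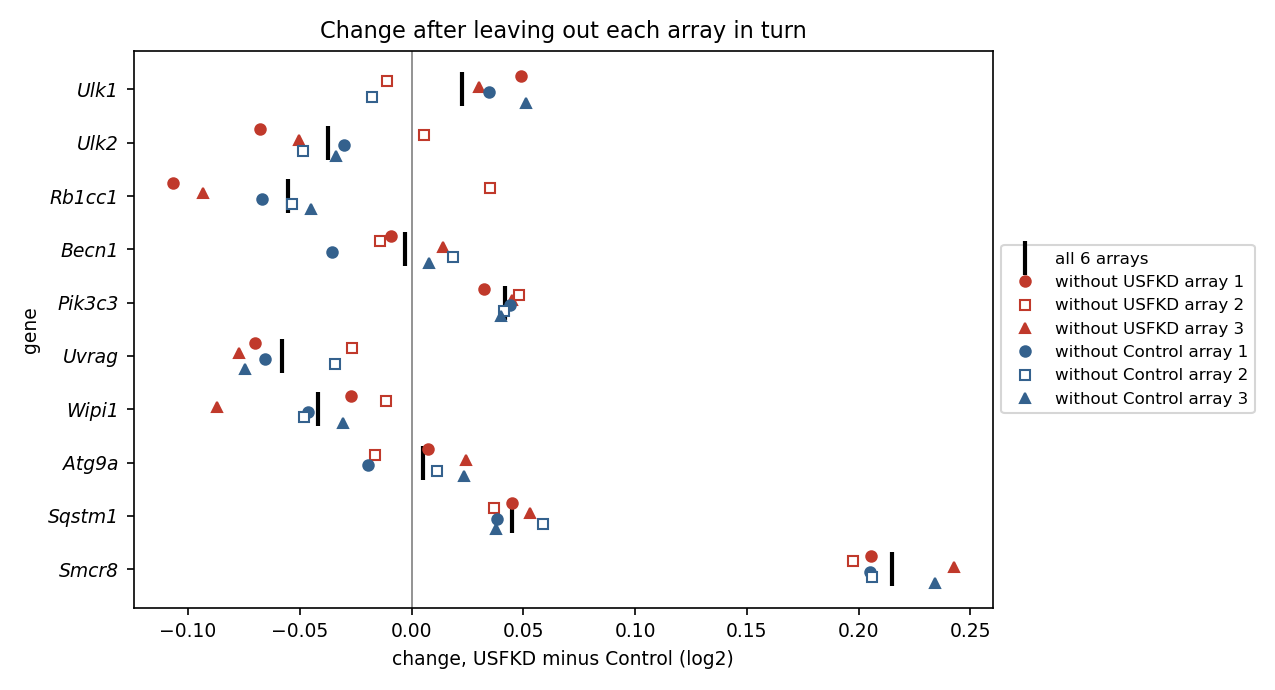
Change of each gene, USFKD minus Control on the log2 scale (horizontal axis), with all 6 arrays (black bar) and after leaving out each array (points), for the 10 genes (vertical axis). Smcr8 stays between 0.20 and 0.24, and the point without USFKD array 2 lies across 0 from the black bar for Ulk1, Ulk2, Rb1cc1 and Atg9a.

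The other parts of the autophagy machinery were read from gene lists. The list of other initiation and nucleation genes, which also holds relatives of ULK1 such as Ulk4, had 14 genes, all measured. Of these, 0 passed the adjusted threshold in limma and 0 were at an unadjusted p under 0.05 (background 4.25%). Atg101, a subunit of the ULK1 complex, was closest at -0.12 ± 0.05 (SE), with USFKD arrays below all Control arrays, followed by Ulk4, a kinase-like relative of ULK1, at -0.07 ± 0.04 (SE) and Nrbf2, a subunit of the lipid kinase, at 0.06 ± 0.04 (SE). Over the list, USFKD arrays lay above all Control arrays for 1 gene, Nrbf2 (background 4.33%). They lay below for 2, Atg101 and Ulk4 (background 5.95%). Atg101 was at -0.07 without USFKD array 2 and Nrbf2 at 0.04 without Control array 3. The list had 7 changes on each side of 0 and a median of -0.0026, which was 0.02 without USFKD array 2. Of 9 genes for PI3P binding, lipid transfer and ATG9 vesicles, all measured, 0 passed the adjusted threshold in limma and 0 were at an unadjusted p under 0.05 (background 4.25%). Trappc8, which acts on ATG9 traffic, was at 0.10 ± 0.06 (SE), the PI3P-binding Zfyve1 at -0.06 ± 0.05 (SE) and Tbc1d14 at -0.06 ± 0.04 (SE), and the median was 0.01. These values leaned on single arrays, and the median was 0.06 without USFKD array 2. Trappc8 was at 0.15 without USFKD array 2 and at 0.05 without USFKD array 3 or Control array 2. Zfyve1 was at -0.04 without USFKD array 1 or Control array 1, and Tbc1d14 at -0.03 without Control array 3.

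Of 14 kinases and regulators upstream of ULK1, all measured, 0 passed the adjusted threshold in limma and 0 were at an unadjusted p under 0.05 (background 4.25%). Their changes ran from -0.03 to 0.07, with 7 on each side of 0, and 0 genes had groups that did not overlap (background 10.3%). With so few genes, counts of 0 are near these shares. The members with the smallest p were subunits of AMP-activated kinase: Prkaa2 at 0.07 ± 0.05, Prkab1 at 0.04 ± 0.05 and Prkaa1 at 0.03 ± 0.04 (SE). Prkab1 was at -0.0046 without Control array 1 and 0.08 without Control array 3, Prkaa2 at 0.04 without Control array 3 and Prkaa1 at 0.0082 without USFKD array 3. Of 13 genes for fusion of autophagosomes with lysosomes, all measured, 0 passed the adjusted threshold in limma, and 1, above 0, was at an unadjusted p under 0.05 (background 1.60% higher). Rab7, the GTPase of late endosomes, had 0.034, 0.118 and 0.037 on the USFKD arrays, against -0.034, -0.075 and -0.091 on the Control arrays, a change of 0.13 ± 0.04 (SE, limma adjusted p = 0.996). The autophagosome SNARE Stx17 was at -0.09 ± 0.05 and the tethering subunit Vps41 at 0.06 ± 0.04 (SE), and Stx17 was at -0.05 without USFKD array 2. The median of the list was -0.0090, and 0.0250 without USFKD array 2.

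**Figure D4:**
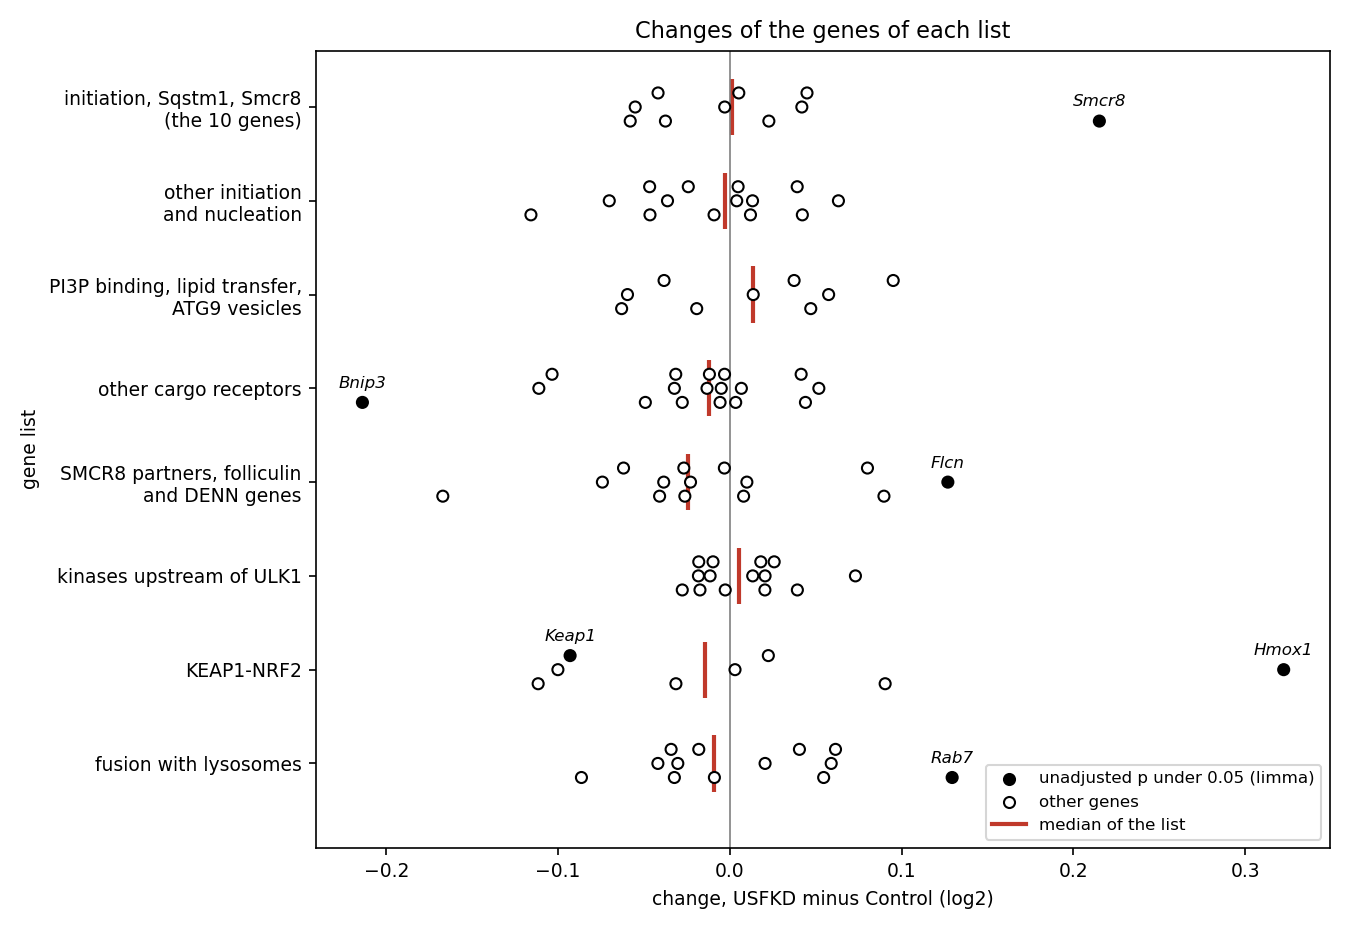
Change of each measured gene, USFKD minus Control on the log2 scale (horizontal axis), in each gene list (vertical axis). Filled points are at an unadjusted limma p under 0.05 and carry their names, open points are the other genes and red bars are list medians. Smcr8, Flcn, Rab7 and Hmox1 are the filled points above 0, and Bnip3 and Keap1 those below.

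Promoter windows from RefSeq (GRCm38.p6, 250 bases before to 50 bases after a start site) were found for 6 of the 10 genes, Ulk1, Ulk2, Uvrag, Wipi1, Atg9a and Sqstm1. Smcr8, Pik3c3, Becn1 and Rb1cc1 had no window and were not searched. The E-box CACGTG, which reads the same on both strands, was in 0 of these 6 windows. It was in 9.02% of 16377 windows of the genes measured here and in 7.15% of all 32851 windows. The windows of Sqstm1 (chr11:50210771-50211070, minus strand), the one gene with groups that did not overlap among these 6, and of Fnip1 (chr11:54437929-54438228, plus strand), a partner gene of Flcn with an E-box, are shown for comparison, with CACGTG in capitals.
Sqstm1: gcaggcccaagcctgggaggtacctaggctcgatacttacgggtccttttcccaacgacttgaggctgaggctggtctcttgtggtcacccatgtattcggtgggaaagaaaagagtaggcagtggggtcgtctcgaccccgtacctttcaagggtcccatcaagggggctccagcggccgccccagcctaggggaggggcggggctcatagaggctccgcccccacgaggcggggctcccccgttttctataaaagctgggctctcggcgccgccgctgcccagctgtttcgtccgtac
Fnip1: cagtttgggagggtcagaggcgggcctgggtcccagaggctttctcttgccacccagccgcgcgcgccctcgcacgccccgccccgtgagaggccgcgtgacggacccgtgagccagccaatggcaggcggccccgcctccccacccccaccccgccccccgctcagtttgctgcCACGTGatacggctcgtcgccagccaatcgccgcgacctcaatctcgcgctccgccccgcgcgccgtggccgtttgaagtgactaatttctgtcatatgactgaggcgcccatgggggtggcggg
In the Fnip1 window the E-box starts 75 bases before the start site. A match is a description of these letters and not a site of binding, and no match says only that the letters are not in this window.

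Among the other autophagy lists, CACGTG was in the windows of 3 of 14 other initiation and nucleation genes, 3 of 15 cargo receptors, 2 of 13 SMCR8 partners and DENN genes, 2 of 14 upstream kinases, 2 of 11 fusion genes, 1 of 7 genes for PI3P binding, lipid transfer and ATG9 vesicles and 0 of 6 KEAP1-NRF2 genes with a window. Per gene, CACGTG was in 10.6% of the measured genes with a window and in 8.09% of all genes with one. Of the 13 genes of these lists that held it, 10 had changes below 0 and 3 above. Of the 10 below 0, all but Tbc1d14 had their lowest USFKD value on USFKD array 2, the one with the wide spread. Atg14 was at -0.186 and Tbk1 at -0.119 there. The split was not counted without that array and cannot be read as a result about the motif. Over all 16583 genes, 8362 changes were below 0 and 8221 above. None of the 13 passed the adjusted threshold, and a link between the motif and these signs was not tested. The groups did not overlap for 4 of the 13 (background 10.3%), Bnip3 (-0.21), Sec62 (-0.05 ± 0.04, SE), Nrbf2 (0.06) and Fnip1 (0.08). Sec62 was named after the motif search.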

How the data were processed

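Total RNA of 6 Neuro2a samples was prepared with a Qiagen RNeasy kit and turned into labelled cDNA with Ambion and Affymetrix kits, per the labels' protocols, for 1 Mouse Gene 1.0 ST array each. Groups and replicate numbers come from the sample titles. The table the authors deposited holds 22891 transcript clusters on 6 arrays, and its values are read here as log2. It is centred, every cluster having its median over the arrays at 0 (at most 5.0e-07 away). How background and differences between arrays were handled, and the log base, is not given in the sources used here. Arrays give no read depth, and their number limits the precision.

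The log2 scale and the brightness class come from the rounding step of the numbers, 4.77e-07 for 4 to 8 and 9.54e-07 for 8 to 16 (tolerance 0.05 of a step, values printed with 3 digits left out). By it 12903 clusters were in the dimmer class, 9972 in the brighter one and 16 unknown. A chance fit can place some wrongly.

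Clusters with exactly 1 symbol in the platform annotation (18087) were named and averaged by gene, which gave 16583 genes, 861 of them with several clusters. Entrez identifiers matched 18023 clusters to RefSeq symbols (GRCm38.p6), and 0 symbols changed. No coordinates of that table are given, since the deposited table names no build. The promoter windows carry their own build. Changes were fitted in R 4.3.3 with limma 3.58.1 (lmFit, eBayes), with 4 residual and 3.79 prior degrees of freedom, Benjamini-Hochberg adjusted over all genes. The fit was tested on simulated data. For single genes a two-sided exact permutation test over arrays was added. Samples with the same replicate number did not deviate together (correlations 0.003, 0.082 and 0.036 for numbers 1, 2 and 3), so no pairing was used.

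The 10 genes and the gene lists, written from textbook knowledge, were chosen with earlier results of these data known. Besides the 10 genes and the 2 targets, the rule named up to 3 measured genes of each list with the smallest p and the 5 genes most like the leading one. Genes outside it are said to be so. Alternatives were other normalizations, a robust variance, the brighter class alone, a replicate block, array weights, single clusters and leaving out each array. Figures were made with Python 3.11.15 and matplotlib 3.10.9.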

Additional observations from a re-analysis of the deposited data

How the results depend on the processing

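Over 14 alternatives the 5 genes Smcr8, Sqstm1, Pik3c3, Uvrag and Wipi1 kept the sign of their change, and Smcr8 was at an unadjusted limma p under 0.05 in 14 of them. Apart from array weights, the lowest adjusted limma p of any of the 10 genes was 0.146, for Smcr8 in the brighter class alone, where 7318 genes were tested. With array weights 1 of the 10 genes passed the adjusted threshold (Smcr8), as did 1111 of all 16583 genes. At an unadjusted limma p under 0.05 in that fit were 3 of the 10 genes and 4356 of all genes. Nearly all weight of the USFKD group lay on 1 array. The sign turned for the other 5 genes in 17 of their 69 values. With array weights Ulk1 was at -0.0302, Ulk2 at 0.0236, Rb1cc1 at 0.0417 and Atg9a at -0.0103. With arrays scaled to the same median absolute deviation Rb1cc1 was at 0.0002, Becn1 at 0.0004 and Atg9a at -0.0001, and with quantile normalization Becn1 was at 0.0032. Without USFKD array 2 Ulk1 was at -0.0108, Ulk2 at 0.0056, Rb1cc1 at 0.0349, Atg9a at -0.0164 and the Ulk1 minus Ulk2 difference at -0.0165. Becn1 was at 0.0141 without USFKD array 3 and at 0.0186 and 0.0080 without Control arrays 2 and 3, Ulk1 at -0.0175 without Control array 2, and Atg9a and Prkab1 at -0.0195 and -0.0046 without Control array 1. Over the fits without 1 array Ulk1 thus ranged from -0.0175 to 0.0511, Ulk2 from -0.0678 to 0.0056, Rb1cc1 from -0.1069 to 0.0349, Becn1 from -0.0356 to 0.0186, Atg9a from -0.0195 to 0.0244 and Prkab1 from -0.0046 to 0.0835. The cause of these turns was not tested.

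Leaving out 1 array at a time, the number of the 10 genes whose groups did not overlap ran from 3 to 5, highest without USFKD array 3. Separation is easier with fewer arrays in all of these fits, and the share over all genes was not counted for them. These counts therefore cannot be read as a result about the 10 genes. The median change of the 10 genes ran from -0.0248 without Control array 1 to 0.0193 without USFKD array 3, and the Ulk1 minus Ulk2 difference from -0.0165 to 0.1167. With the replicate number as a block, 0 of the 10 genes passed the adjusted threshold and 1 was at an unadjusted p under 0.05, Smcr8 at 0.22 (limma adjusted p = 0.997), and the Ulk1 minus Ulk2 difference was 0.0602. The 1 call over all genes became 0 with that block, but the numbers do not pair the samples. A trend of the variance with level was not run, since centred values keep no level. The Ulk1 minus Ulk2 difference was not computed with array weights, nor in the brighter class, which does not hold Ulk2. With 3 arrays a group, a typical gene had an SE of 0.0561.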
